A study of Mus musculus with 2 samples.

Results

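The stretch of the mouse genome with the most listed EBF1 binding sites lies on chromosome 10 between 79 and 81 Mb, in the mm8 build. It was examined here in 400 windows of 10 kb from position 78000001 to 82000000, out of 262809 such windows on chromosomes 1 to 19 and X. Of these, 200 windows form the domain (79000001 to 81000000) and 100 windows lie in each of the left and right flanks of 1 Mb. The domain was chosen by its number of listed peaks, which had been called on the ChIP reads used here. Its peak count and its ChIP to input ratios are therefore given as a description. The stretch holds 83 of the 7424 peaks in the authors' list, with 79 in the domain, 1 in the left flank and 3 in the right flank.

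EBF1 (early B cell factor 1) is a transcription factor that binds DNA as a dimer and is required for commitment to the B cell lineage. It binds at promoters and at distal elements, often together with other B cell factors. In chromatin immunoprecipitation with sequencing (ChIP-seq), a bound site appears as a local excess of ChIP reads over input reads, and the input is chromatin sequenced without precipitation. Levels between sites show how much DNA of a region came down with the antibody outside the called peaks.

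The cells were splenic B cells, taken from adult mice of the C57BL/6 strain. The EBF1 ChIP library came from chromatin precipitated with a custom rabbit antibody against mouse EBF1, and the Input library from the same kind of chromatin with no antibody named. Per the labels, the cells were those left after magnetic depletion of CD43, AA4.1, CD9, CD4 and CD8, and were described as mature follicular B cells. The labels also give 97% of cells as positive for B220 and 92% as positive for CD23. The ChIP-seq reads themselves give no marker levels to check these labels, which do not say how many mice were pooled. Each group held 1 library, so there is no replicate check and no test. All intervals are exact 95% intervals that cover counting error alone. The ChIP library held 24354888 reads and the input 23053279, of which 40625 and 21560 fell in the domain and 13028 and 13100 in the 2 flanks together. A scaled ratio here is ChIP reads over input reads, divided by 1.06, the ratio of the libraries' totals. No gene annotation or genome of the mm8 build was used here, so positions are given without gene names or sequence.

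The domain was a stretch of raised ChIP signal as well as one rich in peaks. In its 200 windows of 10 kb, ChIP reads ran from 99 to 430 with a median of 195, against input reads from 64 to 177 with a median of 108. The scaled ratio over the whole domain was 1.78 (1.75 to 1.81), against 0.946 (0.916 to 0.978) in the left flank and 0.935 (0.901 to 0.970) in the right flank. The lowest window of the domain stood at 1.04 and the median at 1.75, with quartiles of 1.54 and 1.98, so 0 of its 200 windows had fewer ChIP than input reads after scaling. In the flanks the median window was at 0.858, and 115 of the 162 flank windows with at least 20 input reads lay below 1. Over all chromosomes 143379 of 248671 such windows lay below 1, and their median was 0.946.

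A scaled ratio of at least 1.5, in windows with at least 20 input reads, was used as a call. It was met by 155 of the 200 domain windows (77.5%, 71.1 to 83.1%) and by 8 of 162 flank windows (4.94%, 2.16 to 9.50%). Over all chromosomes 13600 of 248671 windows met it, 5.47%. Without the minimum of input reads the flank share was 8.85% (5.24 to 13.8%), against 5.65% over all chromosomes. Windows without a listed peak behaved much like the rest of the domain. Among them 109 of 144 (75.7%) were called in the domain, against a background of 4.38% among peak-free windows of all chromosomes. The median ratio was 1.71 in these peak-free windows and 1.93 in the 56 domain windows that held a peak.

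**Figure D1:**
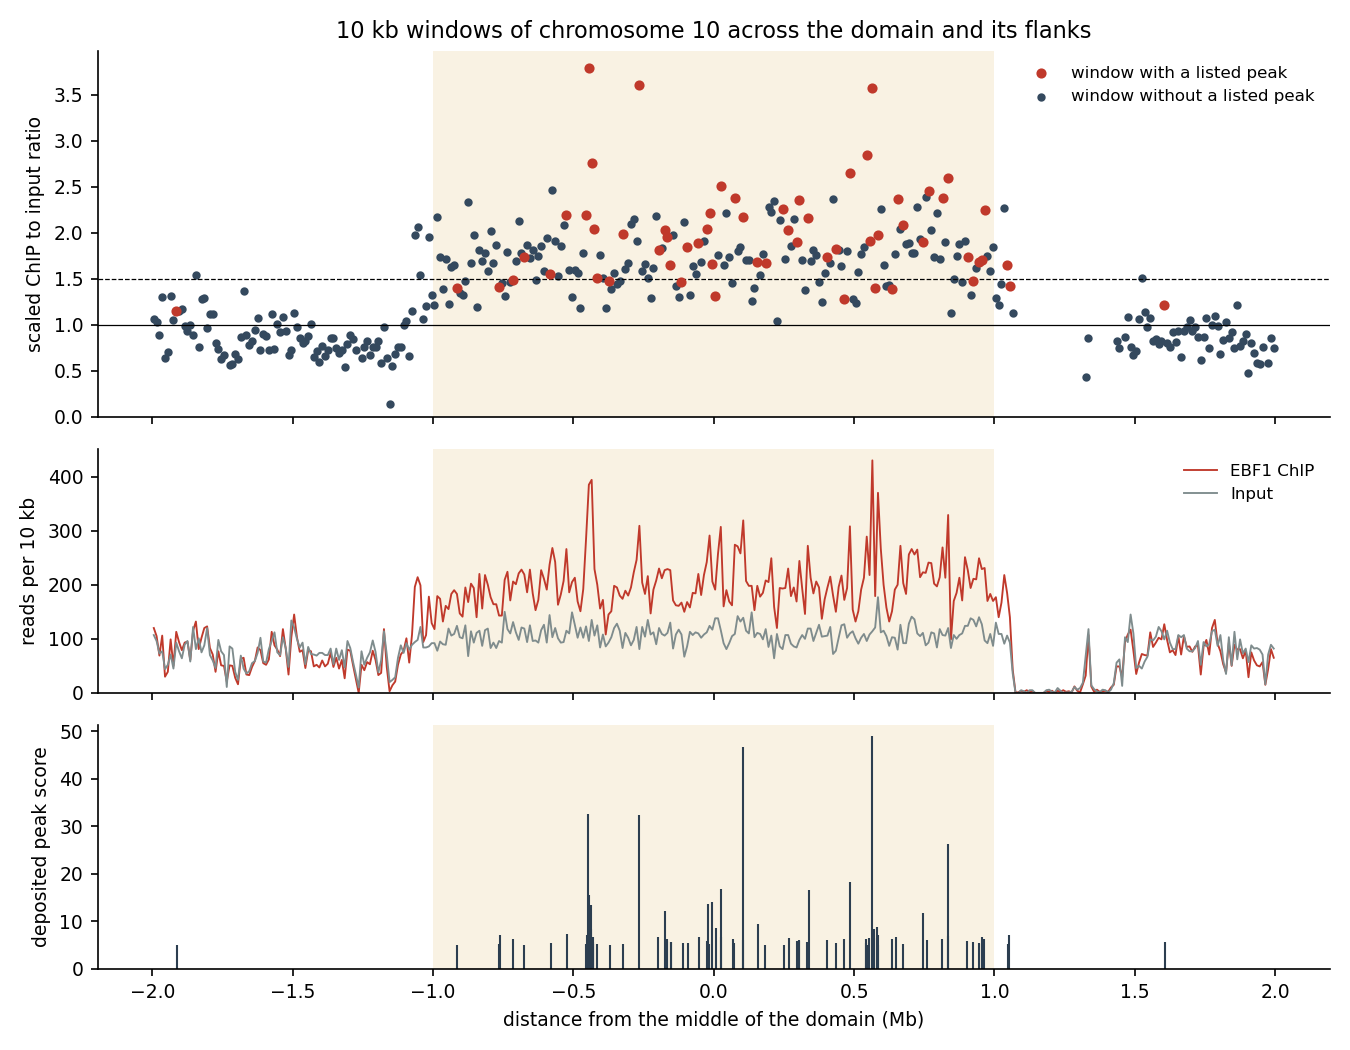
Top, scaled ChIP to input ratio of each 10 kb window with at least 20 input reads, against distance from the middle of the domain in Mb, with lines at 1 and 1.5. Middle, reads per 10 kb in the EBF1 ChIP and Input libraries, and bottom, the authors' score of each listed peak. Shading marks the 2 Mb domain, where the ratio had a median of 1.75, against 0.858 in the flanks.

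The windows with the highest ratios all held peaks. The window from 79550001 to 79560000, with 2 peaks of the 11-peak cluster, held 385 ChIP and 96 input reads, for a ratio of 3.80 (3.03 to 4.80). The window from 79730001 to 79740000 followed with 309 and 81 reads, for a ratio of 3.61 (2.82 to 4.67), and held 1 peak. The window from 80560001 had 430 ChIP reads, the most of the stretch, and 114 input reads, for a ratio of 3.57 (2.90 to 4.43). The windows from 80540001 (289 ChIP and 96 input reads) and from 79560001 (394 and 135) had ratios of 2.85 and 2.76. Input reads ran from 81 to 135 and ChIP reads from 289 to 430 among these 5 windows, and the order by ratio was not the order by ChIP reads. The highest peak-free window of the domain reached 2.46, against 2.98 over all chromosomes. Peak-free means that no peak centre lay in the window, and this one, from 79420001, began just past the peak at 79419791 to 79419940. Without reads within 2 kb of a peak it stood at 2.38. In all, 48 of the 200 domain windows were at 2 or more, against 1441 of 248671 windows of all chromosomes.

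Among windows with at least 20 input reads, the 5 lowest ratios were all in the flanks. The window from 78840001 held 3 ChIP and 20 input reads (0.142, 0.0270 to 0.479), and the window from 81320001 held 32 and 69 (0.439, 0.279 to 0.677). The windows from 81900001 (29 ChIP and 57 input reads), 78680001 (27 and 47) and 78850001 (14 and 24) stood at 0.482, 0.544 and 0.552. All 5 had fewer input reads than the median flank window, which held 81.

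Between the peaks the ChIP level was raised across the domain. Counting only 1 kb bins at least 2 kb from any listed peak, the domain held 31590 ChIP and 17786 input reads in 1671 bins, for a ratio of 1.68 (1.65 to 1.71). In the flanks the same count was 12650 and 12875 reads, for a ratio of 0.930 (0.907 to 0.953). The rest of chromosome 10 had a ratio of 0.953 and all chromosomes outside the 4 Mb stretch had 0.985. Forward and reverse reads gave 1.69 (1.64 to 1.73) and 1.68 (1.63 to 1.72) in the domain. Without the bins between peaks that were themselves enriched, the domain stood at 1.66.

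This level did not fall with distance from the nearest peak inside the domain. It was 1.68 at 2 to 5 kb from a peak centre, 1.71 at 5 to 10 kb, 1.66 at 10 to 20 kb, 1.67 at 20 to 50 kb and 1.68 (1.54 to 1.83) at 50 to 100 kb. These intervals all overlap. Outside the stretch the ratio was 1.19 at 2 to 5 kb and 1.18 at 5 to 10 kb, and it went down to 1.09 at 50 to 100 kb, 1.00 at 100 to 500 kb and 0.849 beyond 500 kb. Bins of the domain far from a peak thus stood above bins of other regions that were near one.

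**Figure D2:**
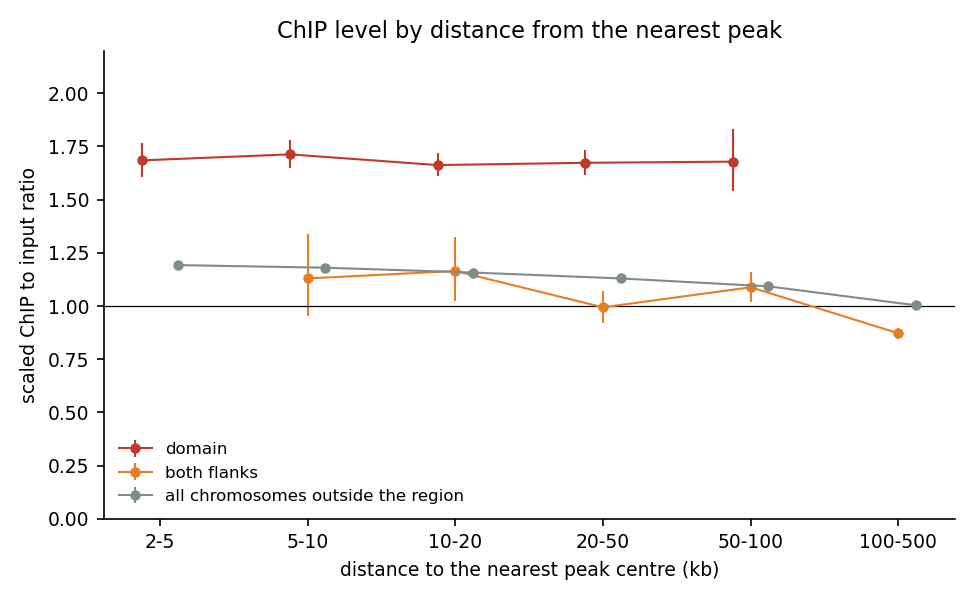
Scaled ChIP to input ratio of 1 kb bins against the distance to the nearest peak centre in kb, for the domain, both flanks and all chromosomes outside the 4 Mb stretch. Points are pooled ratios and bars exact 95% intervals of counting error. The domain stays between 1.66 and 1.71, and the chromosomes outside the stretch go down to 1.00 at 100 to 500 kb.

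Along the domain all 20 steps of 100 kb were at or above 1.5 between peaks. The lowest, at 79600001 to 79700000, only just met the limit, at 1.50005 (1.38 to 1.63) from 1520 ChIP and 959 input reads. The highest, at 80700001 to 80800000, stood at 2.01 from 2033 and 959 reads. Among 24966 such steps of all chromosomes with at least 300 input reads, 380 reached 1.5, which is 1.52%. Inside the domain the level of a step did not rise with its number of peaks. The 7 domain steps with 0 to 2 peaks had a median of 1.77, against 1.645 over all 20 steps. These 7 included both the lowest and the highest step. The step with 12 peaks had 1.61 and the step with 10 had 1.68. In other regions the share of steps at 1.5 or more did rise with the number of peaks. It was 114 of 20297 steps without a peak (0.562%), 158 of 4030 with 1 to 2 peaks (3.92%) and 88 of 602 with 3 or more (14.6%).

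Set beside other stretches, the domain had the highest level between peaks of 2531 windows of 2 Mb, taken every 1 Mb, whose median was 0.959. The 3 next densest windows that do not overlap it were on chromosome 7 at 44000001 to 46000000, with 56 peaks and a level of 1.45 (1.42 to 1.48), on chromosome 2 at 166000001 to 168000000, with 51 peaks and 1.396 (1.37 to 1.42), and on chromosome 4 at 132000001 to 134000000, with 50 peaks and 1.29 (1.27 to 1.32). The run of 20 neighbouring steps at 1.5 or more was the longest of 260 runs, and the next longest held 6 steps. That rank depends on the limit, since at 1.4 the longest run was 22 steps in the stretch and 17 elsewhere, and at 1.3 it was 22 against 36. At 1.6 it was 7 against 4, and 15 of the 20 domain steps were at or above that limit.

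Input reads were denser in the domain too. Between peaks they stood at 10.7 per covered kb in the domain, against 7.93 in the flanks and 9.42 outside the stretch. The part of input density in the result was not tested.

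The raised level began before the first peaks. In 10 kb windows the ratio was 0.662 from 78910001 (56 ChIP and 80 input reads), 1.15 from 78920001 (108 and 89), 1.97 from 78930001 (196 and 94) and 2.07 from 78940001 (214 and 98). The next 5 windows, up to the domain's start, had ratios of 1.54, 1.06, 1.21, 1.96 and 1.33, in order of position. None of these windows held a peak, and the ratio was uneven among them. The sharpest change between 50 kb on either side lay at 78920000, where the inside had 811 ChIP and 487 input reads, for a ratio of 1.58 (1.41 to 1.77), and the outside 358 and 399 reads, for a ratio of 0.849 (0.734 to 0.982). The nearest peak inside, at 79084881 to 79085030, lay 165 kb further in and scored 5.04 (8 ChIP reads, 1 input read). From 79000001 to 79230000 there was 1 peak, yet the level between peaks was already 1.62 (1.53 to 1.70). Since position 78920000 was picked for its contrast, the contrast is extreme by choice.

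On the right side some raised windows lay past 81 Mb, before a stretch with few reads in either library. The first 3 windows past 81 Mb stood at 1.29 (177 ChIP and 130 input reads), 1.22 (140 and 109) and 1.45 (167 and 109). The windows from 81030001 and 81040001 stood at 2.27 (218 ChIP and 91 input reads) and 1.65 (185 and 106), the window from 81050001 at 1.42 (140 and 93), and the window from 81060001 at 1.13 (43 and 36). The 2 peaks just outside the domain lay at 81046881 to 81047030 (score 5.19, 14 ChIP and 0 input reads) and at 81052031 to 81052180 (score 7.09, 21 and 2). The 100 kb from 81100001 held 17 ChIP and 24 input reads and the next 37 and 37, so the right edge could not be resolved there. From 81400001 on the ratio lay between 0.692 and 0.936 in steps of 100 kb. Moving a 2 Mb window in steps of 10 kb gave at most 81 peaks, from 79060001 to 81060000.

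**Figure D3:**
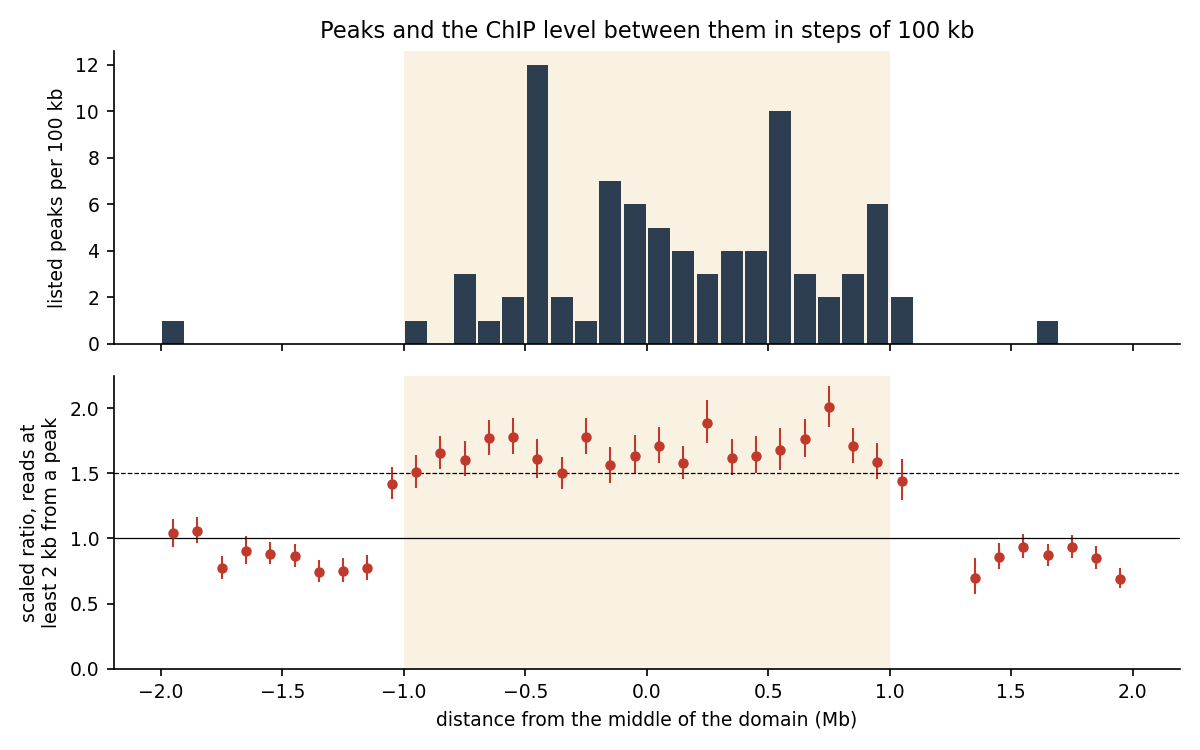
Top, listed peaks per 100 kb, and bottom, the scaled ChIP to input ratio of reads at least 2 kb from any peak, with exact 95% intervals of counting error, against distance from the middle of the domain in Mb. Steps with under 100 input reads are left out of the lower plot. The 20 domain steps lie between 1.5 and 2.01, and the first of them hold few peaks.

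The 79 peaks of the domain amounted to 39.5 per Mb (31.3 to 49.2), against 2.00 per Mb (0.545 to 5.12) in the flanks and 2.87 per Mb on the rest of chromosome 10. Only 0.711 of the 1 Mb of the right flank was covered by input reads. Per covered Mb the densities were 39.6 in the domain, 2.43 in the flanks and 3.04 on the rest of the chromosome. The domain peaks were not spread evenly. The 4 successive stretches of 500 kb held 7, 28, 20 and 24 peaks, and the fullest 100 kb, from 79500001, held 12. Of the 200 windows of 10 kb, 144 held no peak, 39 held 1 and 17 held 2 or more, up to 5.

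Most domain peaks were weak by the authors' score. The scores had a median of 6.21 and a range of 5.04 to 48.9, against a median of 6.07 over all chromosomes. Scores were 10 or more in 14 of 79 peaks (17.7%, 10.0 to 27.9%) and in 18.9% of all listed peaks, so the share of strong peaks was near the background. They were 20 or more in 5 domain peaks and 30 or more in 4. Counted by scores of at least 10, 1 of the 2531 windows of 2 Mb held more peaks than the domain, and by scores of at least 20, 6 windows did. The domain thus held the most peaks of any window only when weak peaks were counted.

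Recounted reads gave the same picture. The 79 peaks held 1509 ChIP and 134 input reads, for a ratio of 10.7 (8.93 to 12.8), against 8.99 (3.89 to 25.5) for the 4 flank peaks and 10.1 (9.92 to 10.3) for peaks outside the stretch. The median domain peak held 12 ChIP reads and 1 input read. The range was 5 to 158 and 0 to 10, and 24 peaks held 0 input reads. The interval of the ratio lay above 1 in 70 of the 79 peaks, though the level between domain peaks was itself 1.68. Taken relative to the level between peaks of the same area, however, domain peaks stood 6.34-fold above it (5.31 to 7.62), against 10.3-fold (10.1 to 10.4) outside the stretch. These baselines are unlike, since the outside level of 0.985 pools many bins far from any peak. At 2 to 5 kb from a peak centre it was 1.19 outside, while the domain had 1.68 both there and pooled. Against the nearer level the contrast would be smaller. The intervals leave out the error of the level between peaks. The peaks were called on these reads, and how the raised level bears on the number of weak peaks called was not tested.

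**Figure D4:**
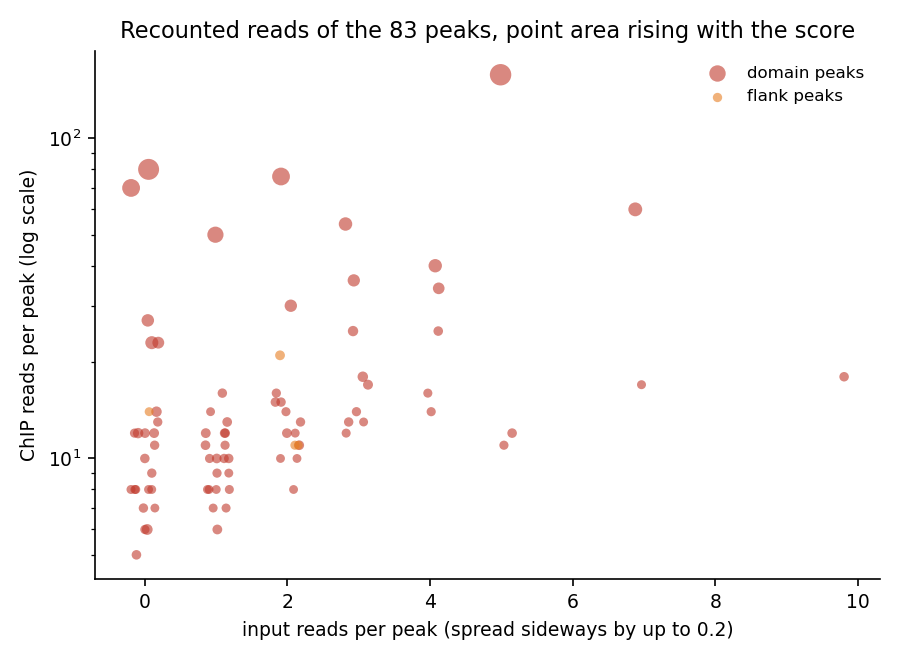
ChIP reads on a log scale against input reads for each of the 83 listed peaks, where point area rises with the authors' score and colour separates domain from flank peaks. Most domain peaks hold near 12 ChIP reads, and 1 peak reaches 158.

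The strongest peak of the domain lay at 80565251 to 80565400 with a score of 48.9, ranked 54 in the whole list. It held 158 ChIP and 5 input reads, for a ratio of 29.9 (12.5 to 93.4). Its ChIP reads filled 52.7% of the 300 positions that 150 bp offer on both strands, so with repeated positions collapsed the count is a lower limit. The nearest listed peak was 5.66 kb away.

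The next peaks had almost no input reads. The peak at 80105061 to 80105210 (score 46.6) held 80 reads in the ChIP and 0 in the input. Against a floor of 3 input counts it was 25.2-fold higher, and the exact lower limit of its ratio was 20.1. The peak at 79551801 to 79551950 (score 32.5) belongs to the 11-peak cluster and held 70 and 0 reads. It was 22.1-fold over the floor, with a lower limit of 17.5. The peak at 79732591 to 79732740 (score 32.4) held 76 and 2 reads, for a ratio of 36.0 (9.62 to 302), and stood alone, with 54.4 kb to its nearest neighbour. Their order by ratio cannot be told from so few input counts. The peak at 80833021 to 80833170 (score 26.2) held 50 ChIP reads and 1 input read.

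Scores from 18.2 down to 14.02 made up the other 5 of the first 10. The peak at 80485451 to 80485600 (18.2) held 60 ChIP and 7 input reads, for a ratio of 8.11 (3.70 to 21.0), and the peak at 80025281 to 80025430 (16.9) held 54 and 3, for a ratio of 17.0. The peak at 80338551 to 80338700 (16.7) held 40 and 4 reads, for a ratio of 9.46. The last 2 had 0 input reads each. They were at 79553891 to 79554040 (15.6), with 23 ChIP reads, and at 79992781 to 79992930 (14.02), with 27. This put them 7.26-fold and 8.52-fold over that floor, with exact lower limits of 5.44 and 6.46. The 10 strongest peaks thus lay over most of the domain and not in 1 place, but 0 of them lay in its first 500 kb.

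The flanks had only weak peaks. On the left the single peak was at 78087191 to 78087340, where 11 ChIP and 2 input reads gave a score of 5.04. On the right, besides the 2 peaks next to the domain, a peak at 81608091 to 81608240 (score 5.70) also held 11 and 2 reads.

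Forward and reverse reads were offset at the stronger peaks, a distance that does not measure a peak's width. In the 16 domain peaks with at least 20 ChIP reads, the median forward and the median reverse 5′ end within 300 bp of the centre were 89 to 145 bp apart, and 108 bp in the median peak. At the strongest peak they lay at -76 and 49 bp, 125 bp apart. Over all 79 domain peaks, reads in the central 150 bp had a ratio of 10.7. The ratio was 2.10 at 200 to 400 bp from the centres, 2.64 at 400 to 700 bp and 2.04 at 700 to 1000 bp. It was 1.89 at 1 to 2 kb and 1.80 (1.73 to 1.87) at 3 to 5 kb. Around peaks outside the stretch it was 10.1 at the centre, and 1.88, 1.66 and 1.47 in the same 3 distances up to 1000 bp. It was 1.33 at 1 to 2 kb and 1.27 at 3 to 5 kb. The flanking values include reads of neighbouring peaks where these are close.

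Peaks of the domain stood close together. The median distance between neighbouring centres was 14.2 kb, with quartiles of 3.61 and 40.3 kb, against a median of 79.1 kb over all chromosomes. A neighbour within 10 kb was found for 48 of 79 peaks (60.8%, 49.1 to 71.6%) and within 1 kb for 18 (22.8%, 14.1 to 33.6%), against 28.4% and 8.48% over all chromosomes. Closer spacing is built into the choice of the window with the most peaks. Joining neighbours within 10 kb left 31 peaks alone, 16 in 8 pairs and 32 in 7 groups of 3 or more.

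The 3 longest gaps of the stretch all began at flank peaks. The gap from the left flank peak to the first domain peak was 998 kb, the gap from the last right flank peak at 81608240 to the next peak, beyond the flank, was 591 kb, and the gap from 81052180 to the peak at 81608091 was 556 kb. The last domain peak was followed by a gap of 82.8 kb. Inside the domain the longest was 149 kb, from 79085030 to 79233771, and the next were 95.2 kb (from 79324760), 70.9 kb (from 80675700), 69.4 kb (from 79732740) and 68.8 kb (from 80180970). The level between peaks at 79100001 to 79200000, in the longest of these gaps, was 1.65 with 1834 ChIP and 1049 input reads.

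The 11-peak cluster was the largest group, at 79544451 to 79571270, a span of 26.8 kb. Its peaks held 243 ChIP and 23 input reads, for a ratio of 10.00 (6.51 to 16.1). The reads were unevenly shared. The peak at 79551801 took 70 of the 243 ChIP reads, and the peaks at 79553891 and 79562361 (score 13.4) held 23 and 36, with 0 and 3 input reads. These were the 3 peaks of the cluster with a score of at least 10.

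The other 8 peaks of the cluster had scores from 5.19 to 8.39. The peaks at 79563331 and 79564051 each held 25 ChIP reads, with 4 and 3 input reads. The first peak, at 79544451, held 17 ChIP and 7 input reads, for a ratio of 2.30 (0.906 to 6.56) whose interval includes 1. The peaks at 79568091 and 79570721 held 14 and 11 ChIP reads, with 2 and 1 input reads. The peaks at 79561861, 79571121 and 79548251 held 9, 7 and 6 ChIP reads, each with 1 input read, and the intervals of the last 2 include 1 as well. A ratio of 1 is a low bar here, since the cluster stood at 1.95 at least 500 bp from its peaks. The lower limits at 79561861 (1.18), 79568091 (1.52) and 79570721 (1.51) were also below that level.

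The widest gap in the cluster, 7.97 kb between centres, left 4 peaks before it and 7 after it. The first 4 of these 7, from 79561861 to 79564200, span 2.34 kb, and that whole stretch held 193 ChIP and 41 input reads, for a ratio of 4.46 (3.17 to 6.40). In the 7.82 kb of that gap outside the peaks there were 187 ChIP and 80 input reads, for a ratio of 2.21 (1.69 to 2.91). Between the peaks at 79551801 and 79553891 the ratio was 6.19 (3.43 to 12.1), from 85 ChIP and 13 input reads in 1.94 kb. This was the highest among the stretches between neighbouring cluster peaks that held input reads. It reaches the edges of both peaks, and its input was 6.70 reads per kb, against 11.7 over the whole cluster. The lowest was 1.24 (0.784 to 1.99), between the peaks at 79568091 and 79570721. At least 500 bp from any of its peaks the cluster had a ratio of 1.95 (1.64 to 2.33), against 2.01 (1.59 to 2.54) in the 10 kb before it and 1.80 (1.43 to 2.28) in the 10 kb after it. These 3 intervals overlap.

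**Figure D5:**
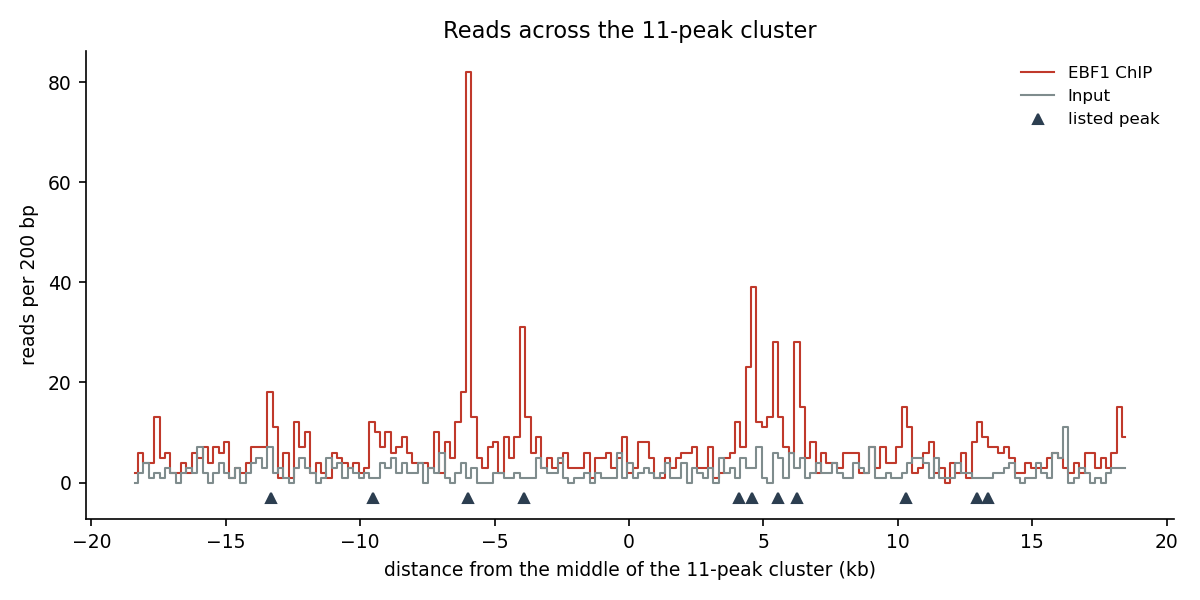
Reads per 200 bp in the EBF1 ChIP and Input libraries against distance from the middle of the 11-peak cluster in kb, with triangles under the listed peaks. The peak with 70 ChIP reads stands apart, 4 peaks at the right of the middle lie within 2.34 kb, and ChIP reads stay above input reads over most of the rest.

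The other 6 groups of 3 or more peaks were smaller and mostly weak. The group at 80581191 to 80586430 held 4 peaks with 56 ChIP and 15 input reads, for a ratio of 3.53 (1.97 to 6.73). The groups at 80540571 to 80553770 and at 80945671 to 80964240, also of 4 peaks, had ratios of 4.85 and 6.94. Groups of 3 peaks lay at 79826831 to 79834950, with 52 ChIP reads and 1 input read, at 79974101 to 79981840, with 58 and 6, and at 80295291 to 80304320, with 27 and 0. Scores of at least 10 occurred in 2 of these groups, at 79826831 (12.2) and 79974101 (13.6).

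Some places between the listed peaks were enriched as well. A 1 kb bin at least 2 kb from any peak counted as enriched where ChIP reads numbered 20 or more and the ratio was 5 or higher. This held for 20 of 1668 bins in the domain (1.20%) and 3 of 1676 in the flanks, against 0.0829% of bins over all chromosomes. With ChIP and input exchanged the count was 0 in the domain and 0 in the flanks. Outside the stretch it was 465, against 1982 enriched bins. An exchanged bin needs 20 input reads, and input averaged 10.7 per covered kb in the domain and 7.93 in the flanks. The count of 0 is therefore no check. In the domain the raised level brings bins nearer to both limits, and its part in this count was not tested. Most ChIP reads among these bins were found at 80733001 to 80734000 (40 ChIP and 7 input reads, for a ratio of 5.41, 2.40 to 14.3), at 80258001 (38 and 6), at 80990001 (36 and 6), at 79718001 (35 and 6) and at 80190001 (34 and 5). These held far fewer reads per kb than the strongest listed peaks, and they were picked for their ratio, which raises it.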

How the data were processed

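EBF1 ChIP replicate 1 and Input replicate 1 were compared, where the number follows the order of accessions. The authors deposited reads as 35 bp alignments with strand, in mm8 per the submitters' processing notes, which also name HOMER. Each strand and 5′ position occurred once, so reads per peak are capped. Which aligner and read filter were used is not given in the sources used here. Per the file, the deposited peak list gives a score per 150 bp peak, with no header to define its scale, and it was used only to rank and filter peaks.

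The 5′ ends were moved 100 bp towards 3′ and counted in peaks, windows of 10 kb, bins of 1 kb and steps of 100 kb. A read fell in the interval that held its moved position. Ratios carry exact conditional binomial (Clopper-Pearson) intervals, densities exact Poisson and shares exact binomial ones, all at 95%. A count of 0 is set against a floor of 3 counts (0.123 RPM in the ChIP library and 0.130 in the input), and folds against it leave out the error of the ChIP count. Reads copied by PCR carry no molecular identifiers and are not independent, so intervals and floors cover counting error alone. Window ratios and their intervals were also computed on simulated Poisson counts with known ratios. These counts hold no spread beyond counting error, so they check the calculation alone. The tools were scipy 1.17.1, numpy 2.4.6, matplotlib 3.10.9 and pandas 2.3.3 under Python 3.11.15.

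The members and lists were chosen with earlier results of these data known. Named sites follow 1 rule, which takes the 10 highest-scoring domain peaks, the 5 highest of each flank (fewer exist), the cluster, the extreme windows, the longest gaps, the peaks at each end and the top enriched bins. Other windows, steps, groups and gap levels named were chosen after their values were seen. Gene names, sequences and motifs were not analysed here.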

Additional observations from a re-analysis of the deposited data

How the results depend on the processing

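Of 56 values recomputed for 12 results, 42 stayed within the interval, the 1.5-fold limit for counts or the 0.1 Mb limit for lengths, and 14 moved. The limits of 1.4 and 1.6 for runs, separate strands and background scaling of the level between peaks were added once the data were known. A score of at least 10 left 7 domain peaks per Mb and 0 flank peaks per Mb, and a score of at least 20 left 2.5 and 0, by construction. A score of at least 10 also gave a ratio of 23.2 in domain peaks and a median spacing of 86.6 kb. The ratio in domain peaks was 4.14 in 1 kb around the centre. The share of domain windows called was 84% in windows of 20 kb, against 4.00% over all chromosomes. Joining neighbours within 5 kb split the cluster into groups of 4 peaks, with its strongest, and 7 peaks. The longest run of steps with a peak, 1.9 Mb, was 0.55 Mb in steps of 50 kb and 2.2 Mb in steps of 200 kb. The run raised between peaks, 2 Mb, was 0.9 Mb in steps of 50 kb, 2.2 Mb at a limit of 1.4 and 0.7 Mb at 1.6. The cause was not tested beyond the settings' own construction. The level between domain peaks stayed between 1.66 and 1.71 in all 9 alternatives run. Depth limits single peaks, since the median peak held 12 ChIP reads. No paired analysis was possible because the ChIP and the input had 1 library each.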

Other observations

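Both libraries were nearly empty beyond the right edge of the domain. The steps of 100 kb from 81100001, 81200001 and 81300001 held 17, 37 and 185 ChIP reads and 24, 37 and 251 input reads. Steps inside the domain held 1622 to 2440 ChIP and 921 to 1172 input reads. From 81500001 input was back at 802 reads per 100 kb, with 793 ChIP reads. In the left flank the 3 steps before the edge, from 78600001 to 78900000, had ratios of 0.746, 0.753 and 0.771, at the low end of the stretch.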
